A study of Homo sapiens with 12 samples.

Results

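The dual-specificity MAP kinase phosphatases were followed in T84, a widely used human colon carcinoma cell line with epithelial character, held in acid or neutral saline. The rule named 10 genes, and 9 of them (DUSP1, DUSP2, DUSP4, DUSP5, DUSP6, DUSP7, DUSP8, DUSP10 and DUSP16) were matched by Ensembl identifier among the 48162 genes of the read count table. DUSP14, a small phosphatase without the kinase-binding domain of the others, was not matched, so its level is not analysed here. Confluent cells had their medium replaced by Hanks buffered saline, so every group, control or acid, was without growth medium. The 4 groups were pH 6.0 for 6 h, pH 7.4 for 6 h, pH 6.0 for 3 h and pH 7.4 for 3 h, with 3 libraries each. Whether libraries with the same treatment stem from separate cultures is not stated, so p-values reflect library-to-library spread that may be purely technical. No comparison with cells in growth medium was made.

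MAP kinases are switched on when an upstream kinase phosphorylates a threonine and a tyrosine in their activation loop, and these phosphatases switch them off by removing both phosphates. They were set in 3 classes by their known substrates. DUSP1, DUSP2 and DUSP4 are nuclear enzymes that stimuli induce and that act on more than one kind of MAP kinase. DUSP5, DUSP6 and DUSP7 prefer ERK, the kinase that relays growth factor signals. DUSP8, DUSP10 and DUSP16 prefer the stress kinases JNK and p38. In epithelia several of the genes are themselves transcribed in response to MAP kinase activity, which makes them feedback regulators as well as early response genes.

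Library totals ran from 13912532 to 24331032 counts, and each of the 9 genes had at least 60 counts in every library. All 9 passed the filter on low counts that left 15630 genes for testing. Intestinal epithelial markers were present throughout: 12 of 12 matched, and their summed level was 10354 to 11052 CPM (counts scaled by library totals adjusted with TMM factors) in the pH 6.0 libraries at 6 h, against 8268 to 8431 CPM in the pH 7.4 libraries. At 3 h that sum was 9758 to 9916 CPM at pH 6.0 and 8502 to 9390 CPM at pH 7.4. KRT8, an epithelial keratin, was the most abundant of them, with 4521 CPM in acid and 2919 CPM in neutral saline at 6 h. The single markers did not all move with the sum. By the edgeR test described below, 6 of the 12 were called higher and 2 lower in acid at 6 h, beside 21.9% and 25.1% of all genes. At 3 h 3 were called higher and 0 lower, beside 9.53% and 9.26%. Summed fibroblast markers (11 of 11 matched) were 8.40 to 33.6 CPM in the pH 7.4 libraries at 6 h and 8.15 to 11.9 CPM in the other groups. COL1A1, one of them, had 4.98 ± 7.79 CPM in the pH 7.4 libraries at 6 h (SD, n = 3). Over all libraries leukocyte markers (11 of 11) were 8.69 to 12.8 CPM and endothelial markers (6 of 7) 9.55 to 13.7 CPM. MS4A1, which defines B cells, was at 0 in all 12 libraries. The epithelial sum thus separated the pH groups at both times, and its part in the results below was not tested.

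Acid saline raised a minority of the phosphatase genes by a large factor and moved the others little. At 6 h 4 of the 9 genes were higher at pH 6.0 than at pH 7.4 (DUSP1, DUSP2, DUSP5 and DUSP10) and 3 were lower (DUSP4, DUSP7 and DUSP16), by edgeR's quasi-likelihood test at a Benjamini-Hochberg adjusted p under 0.05. Over all genes tested, 21.9% were called higher and 25.1% lower in that comparison. At 3 h 3 of the 9 were higher (DUSP1, DUSP2 and DUSP5) and 1 was lower (DUSP6), with 9.53% of all genes called higher and 9.26% lower. Acid and neutral libraries did not overlap for 7 of the 9 genes at 6 h, where 56.6% of all genes were so separated, and for 5 of the 9 at 3 h, where 33% were. The median log2 fold change over the 9 genes was 0.06 at 6 h and 0.15 at 3 h, beside medians of −0.00 at both times over all genes tested. Extracts of whole cultures were sequenced, so fewer cells of a kind and less RNA per cell cannot be told apart.

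**Figure D1:**
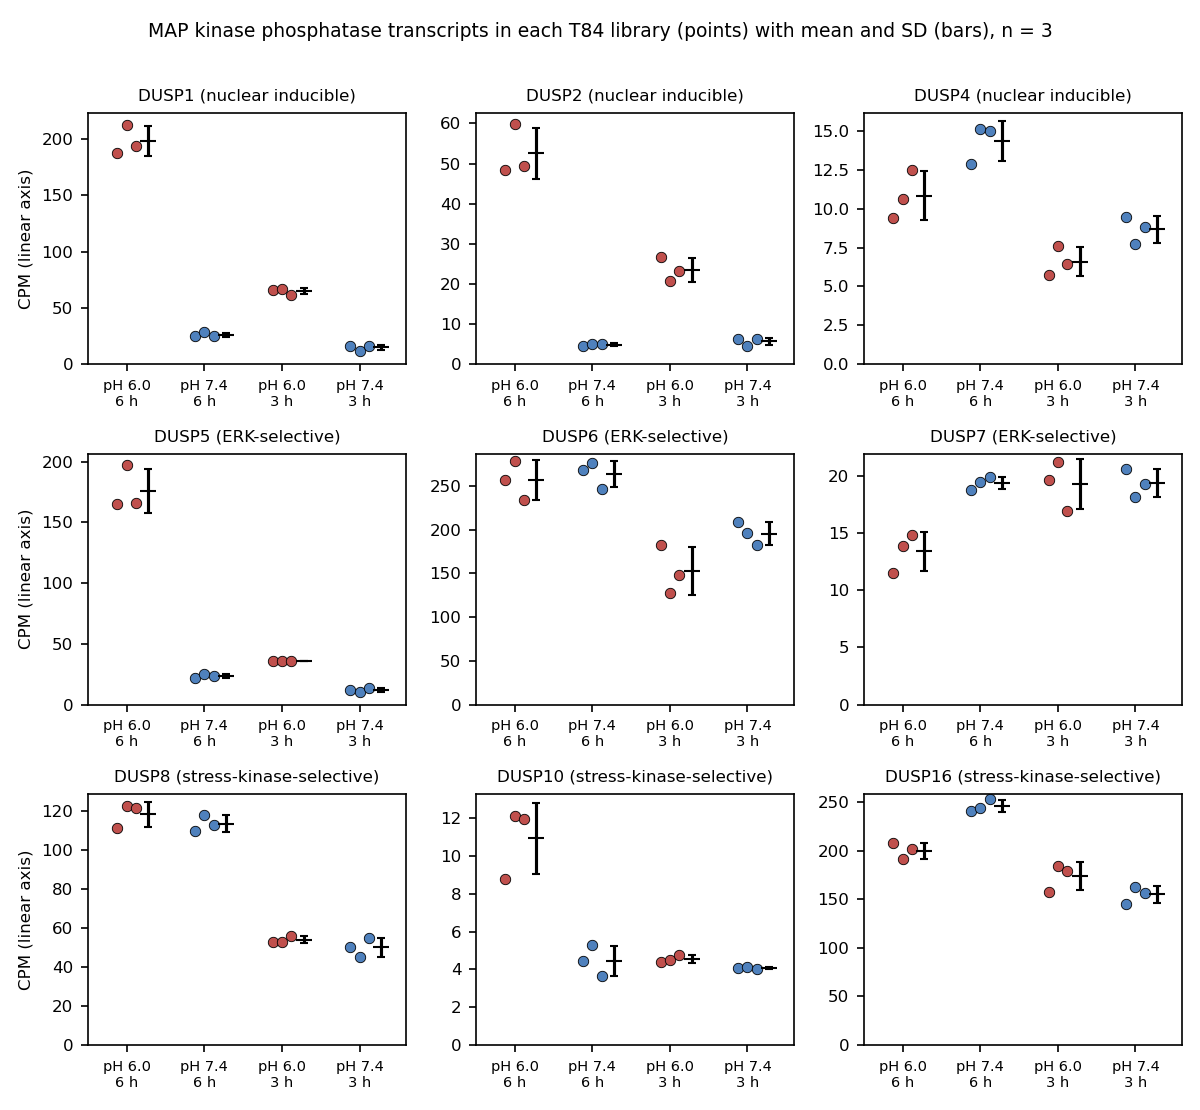
Level of each phosphatase gene in CPM (linear axis from 0) in each of the 12 libraries (points), with the mean and SD of each group (bars, n = 3). DUSP1, DUSP2 and DUSP5 stand above both neutral groups in both acid groups. For DUSP5 the 3 h acid libraries (35.5 to 35.8 CPM) lie near the 6 h neutral ones (22.2 to 25.2 CPM). DUSP10 stands apart in the 6 h acid group, and DUSP6, DUSP8 and DUSP16 are high in all groups.

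DUSP1, the best known immediate early gene of the family, whose product acts mainly on p38 and JNK, had 188, 213 and 194 CPM in the pH 6.0 libraries at 6 h, against 24.7, 28.3 and 25.4 CPM in the pH 7.4 libraries. At 3 h it had 65.8, 66.9 and 61.8 CPM at pH 6.0, against 16.3, 11.9 and 16.3 CPM at pH 7.4. All acid libraries lay above all neutral libraries at the same time, and those at 6 h lay above all others. The rise was 7.58-fold at 6 h (log2 2.92 ± 0.10 SE, edgeR adjusted p = 1.2e-15) and 4.36-fold at 3 h (2.12 ± 0.11, edgeR adjusted p = 2.4e-12). Among the 15630 genes tested DUSP1 had the 46th highest log2 fold change at 6 h and the 91st at 3 h.

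DUSP2, first known from activated lymphocytes and active on ERK and p38, had 48.3, 59.8 and 49.5 CPM in the pH 6.0 libraries at 6 h, against 4.48, 4.996 and 5.11 CPM in the pH 7.4 libraries. At 3 h it had 26.6, 20.6 and 23.3 CPM at pH 6.0, against 6.22, 4.59 and 6.28 CPM at pH 7.4. The gene was low in every neutral library and high in every acid one, with no overlap. The rise was 10.8-fold at 6 h (log2 3.43 ± 0.14 SE, edgeR adjusted p = 1.5e-14), the 20th highest of all genes tested and the highest of the 9, and 4.14-fold at 3 h (2.05 ± 0.14, edgeR adjusted p = 4.94e-10).

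DUSP4, a nuclear phosphatase of ERK and JNK and close in sequence to DUSP1, did not follow the other nuclear genes. It had 9.38, 10.6 and 12.5 CPM in the pH 6.0 libraries at 6 h, against 12.9, 15.1 and 15.03 CPM in the pH 7.4 libraries. The 3 h values were 5.73, 7.58 and 6.45 CPM at pH 6.0, against 9.48, 7.73 and 8.81 CPM at pH 7.4. The acid libraries were the lower ones at both times, though the nearest libraries of the groups almost met. The log2 fold change was −0.41 ± 0.14 SE at 6 h (edgeR adjusted p = 0.0209) and −0.41 ± 0.15 at 3 h, which missed the threshold (edgeR adjusted p = 0.0628). The 6 h call was lost without pH 7.4 replicate 2 (adjusted p = 0.0771) or 3 (0.068), without pH 6.0 replicate 1 (0.158) or 2 (0.0864), and with a gene length correction, where the log2 fold change was −0.22 (0.204); the range over 20 alternatives was 0.012 to 0.204. The 3 h difference passed in 4 of its 20 alternatives, among them the fit without pH 7.4 replicate 2 (0.0377), over a range of 0.0271 to 0.223.

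Promoter sequence was read for the inducible genes because the cAMP response element, the palindrome TGACGTCA bound by CREB and ATF proteins, is a known feature of the DUSP1 promoter. RefSeq windows on GRCh38.p14, from 250 bases before to 50 after the start of transcription, were at hand for 8 of the 10 named genes (9 windows, since DUSP10 has a pair). DUSP4 and DUSP5 had no window, so the motif counts do not cover them, and the window of DUSP14 is among the 9. DUSP1 and DUSP2 are shown as the genes of the nuclear inducible class that rose. DUSP8 is shown as a gene with the same element whose level did not pass the test for pH. Each is written 5′ to 3′ on the minus strand, which is the gene's own, in lower case with TGACGTCA in capitals. They lie at chr5:172771146-172771445, chr2:96145391-96145690 and chr11:1572222-1572521.
DUSP1: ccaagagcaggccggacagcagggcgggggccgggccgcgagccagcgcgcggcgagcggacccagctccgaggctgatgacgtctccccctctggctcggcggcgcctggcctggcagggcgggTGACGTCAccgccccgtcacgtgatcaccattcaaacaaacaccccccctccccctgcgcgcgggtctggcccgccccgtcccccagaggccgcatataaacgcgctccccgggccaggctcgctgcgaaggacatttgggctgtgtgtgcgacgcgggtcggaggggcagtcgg
DUSP2: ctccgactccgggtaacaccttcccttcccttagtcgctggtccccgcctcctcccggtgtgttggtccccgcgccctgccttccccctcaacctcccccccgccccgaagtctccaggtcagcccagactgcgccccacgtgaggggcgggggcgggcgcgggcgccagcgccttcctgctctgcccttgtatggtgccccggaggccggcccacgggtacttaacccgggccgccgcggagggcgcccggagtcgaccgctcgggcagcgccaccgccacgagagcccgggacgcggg
DUSP8: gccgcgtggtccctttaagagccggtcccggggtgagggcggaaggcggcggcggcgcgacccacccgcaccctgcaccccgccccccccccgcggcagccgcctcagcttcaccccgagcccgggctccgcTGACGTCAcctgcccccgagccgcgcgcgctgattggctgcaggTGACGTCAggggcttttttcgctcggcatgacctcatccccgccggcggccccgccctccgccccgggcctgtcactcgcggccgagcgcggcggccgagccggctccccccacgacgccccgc

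The DUSP1 window held the element once, beginning 125 bases before the start, and the DUSP8 window held it at 118 and 74 bases before. The other 7 windows, DUSP2's included, did not hold these 8 letters, and 1.85% of 35116 RefSeq windows of the same length did. The shorter TGACG, searched on both strands and contained in each strand of every full element, was in 3 of the 9 windows (4 matches each for DUSP1 and DUSP8, 1 for DUSP10) and in 24.6% of all windows. None of the 9 windows matched TGANTCA, the AP-1 motif (7.71% of all windows), GCGTGGGCG, the EGR motif (0.795%), CCGGAAGT, an ETS motif (4.14%), or the CArG box bound by serum response factor (1.29%). A match describes letters and not binding. The level of DUSP1 rose in acid and the pH difference of DUSP8 missed the threshold. DUSP8 did rise from 3 h to 6 h, by 1.13 on the log2 scale at pH 6.0 and 1.18 at pH 7.4. The part of the element in any of these results was not tested.

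DUSP5, the nuclear phosphatase that acts on ERK alone and is itself a target of ERK signalling, was the one ERK-selective gene that rose. It had 165, 197 and 166 CPM in the pH 6.0 libraries at 6 h, against 22.2, 25.2 and 23.5 CPM in the pH 7.4 libraries. Its 3 h values were 35.8, 35.6 and 35.5 CPM at pH 6.0, against 12.2, 10.1 and 13.5 CPM at pH 7.4. All acid libraries were above all neutral libraries at each time. The rise was 7.44-fold at 6 h (log2 2.89 ± 0.10 SE, edgeR adjusted p = 1.13e-15), the 48th highest of all genes tested, and 2.99-fold at 3 h (1.58 ± 0.11, edgeR adjusted p = 5.25e-10), the 202nd highest.

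DUSP6, the cytoplasmic ERK phosphatase whose transcript is widely used as a readout of ERK activity, had 257, 279 and 234 CPM in the pH 6.0 libraries at 6 h, against 268, 276 and 247 CPM in the pH 7.4 libraries. At 3 h it had 183, 128 and 149 CPM at pH 6.0, against 208, 196 and 182 CPM at pH 7.4. The groups overlapped at both times, at 3 h by a single acid library that reached the lowest neutral one. Its log2 fold change at 6 h was −0.04 ± 0.10 SE (95% interval −0.25 to 0.17, edgeR adjusted p = 0.778), and its sign changed under other settings. At 3 h it fell by 0.35 ± 0.10 (edgeR adjusted p = 0.0208). That call was lost in a fit of the 6 libraries compared (adjusted p = 0.0694) and without pH 7.4 replicate 1 (0.1) or pH 6.0 replicate 2 (0.135) or 3 (0.0852), over a range of 0.000194 to 0.135 in 20 alternatives. The exons of DUSP6 overlap an antisense gene, AC024909.2, in GENCODE 29, and with no statement on strand in the sources used here their reads cannot be told apart.

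DUSP7, a cytoplasmic ERK phosphatase close to DUSP6, had 11.5, 13.9 and 14.8 CPM in the pH 6.0 libraries at 6 h, against 18.8, 19.5 and 19.9 CPM in the pH 7.4 libraries. The 3 h libraries held 19.6, 21.3 and 17.0 CPM at pH 6.0, against 20.7, 18.2 and 19.3 CPM at pH 7.4. Every acid library at 6 h was below all 9 others, and at 3 h the groups overlapped. The gene fell by 0.53 ± 0.12 on the log2 scale at 6 h (SE, edgeR adjusted p = 8.17e-04), and at 3 h its log2 fold change was −0.01 ± 0.11 (edgeR adjusted p = 0.968), of either sign under other settings.

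DUSP8, a JNK and p38 phosphatase best known from brain and heart, had 111, 122 and 121 CPM in the pH 6.0 libraries at 6 h, against 109, 118 and 113 CPM in the pH 7.4 libraries. At 3 h it had 52.9, 52.9 and 56.0 CPM at pH 6.0, against 50.1, 45.1 and 54.9 CPM at pH 7.4. The pH groups overlapped at both times. Its log2 fold change was 0.06 ± 0.08 SE at 6 h (95% interval −0.11 to 0.23, edgeR adjusted p = 0.563) and 0.11 ± 0.08 at 3 h (−0.06 to 0.28, edgeR adjusted p = 0.384).

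DUSP10, a JNK and p38 phosphatase found in both cytoplasm and nucleus, was the one stress-kinase-selective gene that rose. It had 8.76, 12.1 and 11.9 CPM in the pH 6.0 libraries at 6 h, against 4.42, 5.26 and 3.65 CPM in the pH 7.4 libraries. After 3 h it had 4.36, 4.49 and 4.76 CPM at pH 6.0, against 4.09, 4.14 and 3.99 CPM at pH 7.4. The 6 h acid libraries stood above all 9 others, while at 3 h the groups were separate by a small margin. The rise at 6 h was 2.46-fold (log2 1.30 ± 0.17 SE, edgeR adjusted p = 1.64e-06), and the 3 h log2 fold change was 0.15 ± 0.18 (edgeR adjusted p = 0.593). It was also among the least counted of the 9, with 60 to 239 counts a library.

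DUSP16, a phosphatase that shuttles between nucleus and cytoplasm and prefers JNK, had 207, 191 and 202 CPM in the pH 6.0 libraries at 6 h, against 241, 244 and 253 CPM in the pH 7.4 libraries. The 3 h libraries held 157, 185 and 179 CPM at pH 6.0, against 145, 163 and 157 CPM at pH 7.4. The acid libraries were all lower at 6 h, and the groups overlapped at 3 h. It fell by 0.30 ± 0.08 on the log2 scale at 6 h (SE, edgeR adjusted p = 0.00312). At 3 h its log2 fold change was 0.16 ± 0.08 (edgeR adjusted p = 0.144), which passed without pH 6.0 replicate 1 (0.0496) and in no other of 20 alternatives (range 0.0496 to 0.428).

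Set by class, the nuclear inducible genes had 2 higher and 1 lower of 3 at 6 h, the ERK-selective genes 1 higher and 1 lower of 3, and the stress-kinase-selective genes 1 higher and 1 lower of 3. Their median log2 fold changes at 6 h were 2.92, −0.04 and 0.06 in that order. At 3 h the nuclear inducible class had 2 higher of 3 and the ERK-selective class 1 higher and 1 lower, while the 3 stress-kinase-selective genes had log2 fold changes of 0.11, 0.15 and 0.16 that missed the threshold. No class moved as a whole, and a test between classes of 3 genes was not made.

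**Figure D2:**
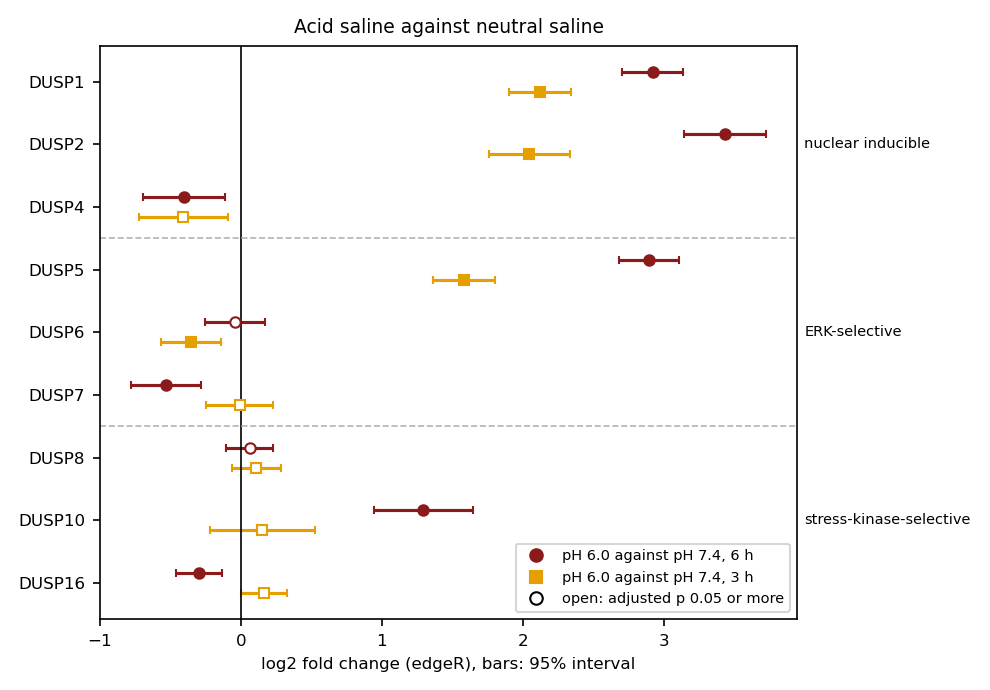
Log2 fold change of pH 6.0 against pH 7.4 for each gene at 6 h (circles) and 3 h (squares), with 95% intervals from edgeR, by class. Open symbols have an adjusted p of 0.05 or more. DUSP1, DUSP2 and DUSP5 lie at 1.58 or above at both times, and DUSP10 is at 1.30 at 6 h and 0.15 at 3 h.

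The pH effect differed between the times for 6 of the 9 genes by the interaction term of the same edgeR fit. It was larger at 6 h than at 3 h for 4 genes, where 13.1% of all genes tested had a positive interaction, and negative for 2 genes, where 16.3% of all genes did. On the log2 scale the positive differences were 1.39 ± 0.20 SE for DUSP2 (edgeR adjusted p = 3.57e-05), 1.31 ± 0.14 for DUSP5 (1.82e-06), 1.14 ± 0.25 for DUSP10 (0.00171) and 0.80 ± 0.14 for DUSP1 (3.71e-04). The negative ones were −0.52 ± 0.1645 for DUSP7 (edgeR adjusted p = 0.0203) and −0.46 ± 0.11 for DUSP16 (0.00345). The DUSP7 call was lost without pH 7.4 3 h replicate 3 (adjusted p = 0.0562), pH 6.0 3 h replicate 1 (0.05) or 2 (0.0642), or pH 6.0 6 h replicate 1 (0.0951), over a range of 0.0159 to 0.0951. The differences for DUSP4 (0.00 ± 0.18), DUSP8 (−0.05 ± 0.12) and DUSP6 (0.31 ± 0.14, edgeR adjusted p = 0.112) missed the threshold, and that of DUSP6 passed with no filter on low counts (0.0267) and without pH 6.0 3 h replicate 1 (0.00407), over a range of 0.00407 to 0.305.

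Longer time in saline raised most of the family at either pH. At pH 6.0 7 of the 9 genes were higher at 6 h than at 3 h and DUSP7 was lower, with 8.64% of all genes called higher and 10.9% lower. At pH 7.4 6 of the 9 were higher and the other 3 missed the threshold, with 17.2% of all genes called higher and 14.4% lower. The median log2 fold change of the 9 genes was 1.13 at pH 6.0, beside −0.02 over all genes tested, and 0.67 at pH 7.4, beside −0.02. These comparisons share their libraries with the pH comparisons and are not independent of them.

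DUSP8 rose with time at both pH values, by 1.13 ± 0.08 SE on the log2 scale at pH 6.0 (edgeR adjusted p = 1.23e-09) and 1.18 ± 0.08 at pH 7.4 (1.87e-09), and all its 6 h libraries lay above all its 3 h libraries. DUSP4 rose by 0.72 ± 0.15 at pH 6.0 (edgeR adjusted p = 0.00158) and 0.72 ± 0.14 at pH 7.4 (4.99e-04). DUSP6 rose by 0.75 ± 0.10 at pH 6.0 (edgeR adjusted p = 1.86e-05) and 0.43 ± 0.10 at pH 7.4 (0.00292). These 3 genes, 1 from each class, were the ones whose pH effects had no called difference between the times.

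DUSP5 rose with time by 2.30 ± 0.10 SE at pH 6.0 (edgeR adjusted p = 2.8e-13), the 12th highest of all genes tested, and by 0.99 ± 0.11 at pH 7.4 (5.94e-07). DUSP1 rose by 1.61 ± 0.10 at pH 6.0 (edgeR adjusted p = 4.17e-11) and 0.81 ± 0.11 at pH 7.4 (7.86e-06). DUSP2 rose by 1.16 ± 0.12 at pH 6.0 (edgeR adjusted p = 2.25e-07), and at pH 7.4 its log2 fold change was −0.23 ± 0.16 (0.289). Both DUSP1 and DUSP5 therefore rose in neutral saline too, while the neutral DUSP2 libraries of the times overlapped.

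DUSP10 rose by 1.27 ± 0.17 SE at pH 6.0 (edgeR adjusted p = 9.26e-06), and at pH 7.4 its log2 fold change was 0.13 ± 0.18 (0.621). DUSP7 fell by 0.52 ± 0.12 at pH 6.0 (edgeR adjusted p = 0.00326), and its value at pH 7.4 was −0.00 ± 0.11 (0.999). DUSP16 rose by 0.67 ± 0.08 at pH 7.4 (edgeR adjusted p = 1.42e-06), and its 0.20 ± 0.08 at pH 6.0 missed the threshold (0.0689) but passed in 6 of 20 alternatives (DESeq2, length correction, and without pH 7.4 3 h replicate 1, 2 or 3 or pH 6.0 6 h replicate 2), over a range of 0.00616 to 0.32. The lower DUSP16 level in acid at 6 h thus stands beside a called rise with time in neutral saline.

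**Figure D3:**
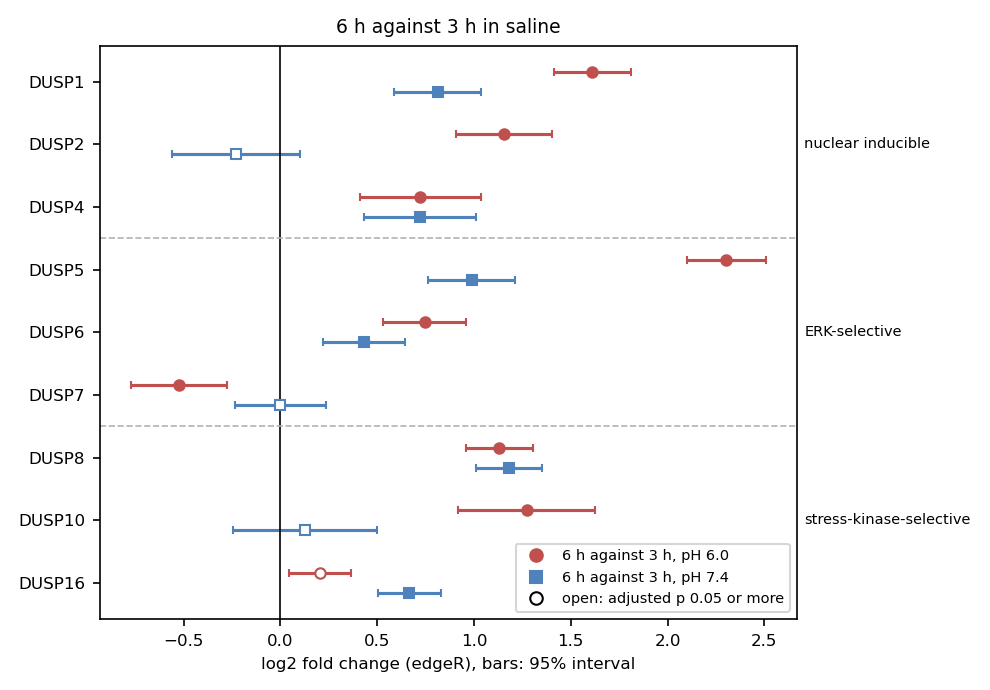
Log2 fold change of 6 h against 3 h in saline for each gene at pH 6.0 (circles) and pH 7.4 (squares), with 95% intervals from edgeR, by class. Open symbols have an adjusted p of 0.05 or more. DUSP5 has the highest value at pH 6.0 (2.30), DUSP8 has nearly the same value at both pH values (1.13 and 1.18), and DUSP7 at pH 6.0 is the one called fall (−0.52).

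Levels were compared between genes per length, with the deposited RPKM (reads scaled by gene length and by library total). In the pH 6.0 libraries at 6 h the order was DUSP1 (93.9 RPKM), DUSP5 (65.9), DUSP6 (55.8), DUSP16 (53.6), DUSP2 (29.8), DUSP8 (25.2), DUSP10 (3.91), DUSP7 (3.84) and DUSP4 (1.87), where the library ranges of DUSP6 and DUSP16 overlapped, as did those of DUSP10 and DUSP7. In the pH 7.4 libraries at 6 h it was DUSP16 (67.9 RPKM), DUSP6 (59.2), DUSP8 (24.9), DUSP1 (12.8), DUSP5 (9.13), DUSP7 (5.73), DUSP2 (2.84), DUSP4 (2.56) and DUSP10 (1.64), where DUSP2 and DUSP4 overlapped. The leading transcript at 6 h was thus the nuclear inducible DUSP1 in acid and the stress-kinase-selective DUSP16 in neutral saline.

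At 3 h the order in the pH 6.0 libraries was DUSP16 (49.4 RPKM), DUSP6 (35.3), DUSP1 (32.6), DUSP5 (14.2), DUSP2 (14.1), DUSP8 (12.2), DUSP7 (5.87), DUSP10 (1.72) and DUSP4 (1.21), with overlap of DUSP6 and DUSP1, of DUSP5 and DUSP2, and of DUSP2 and DUSP8. In the pH 7.4 libraries it was DUSP6 (46.1 RPKM), DUSP16 (45.04), DUSP8 (11.6), DUSP1 (7.62), DUSP7 (6.02), DUSP5 (4.83), DUSP2 (3.49), DUSP4 (1.62) and DUSP10 (1.58), with overlap of DUSP6 and DUSP16, of DUSP1 and DUSP7, and of DUSP4 and DUSP10. The leaders at 3 h were thus DUSP16 in acid and, overlapping with DUSP16, DUSP6 in neutral saline. Among 30685 genes with a count, DUSP1 ranked 543rd by mean RPKM in acid at 6 h, against 4888th in neutral saline, and DUSP5 ranked 844th against 6149th.

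The 9 transcripts summed to 333.9 ± 21.9 RPKM in the pH 6.0 libraries at 6 h, against 186.7 ± 4.37 RPKM in the pH 7.4 libraries (SD, n = 3 each). At 3 h they summed to 166.6 ± 2.43 RPKM at pH 6.0 and 127.9 ± 3.10 RPKM at pH 7.4 (SD, n = 3 each). The acid sums were the higher ones at both times, with no overlap of libraries.

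The nuclear inducible class made up 37.6% ± 0.809 of that sum in acid at 6 h and 9.72% ± 0.433 in neutral saline (SD, n = 3 each). The ERK-selective class made up 37.6% ± 1.30 in acid and 39.6% ± 1.30 in neutral saline at 6 h, and the stress-kinase-selective class 24.9% ± 1.71 and 50.6% ± 1.28 (SD, n = 3 each). These shares depend on the class given to DUSP1, whose product acts mainly on p38 and JNK but which was counted as nuclear inducible. DUSP1 alone took 28.1% of the whole sum in acid and 6.83% in neutral saline at 6 h. Within the ERK-selective share DUSP5 took 19.7% of the whole sum in acid against 4.89% in neutral saline, and DUSP6 16.7% against 31.7%. A near-constant class share at 6 h therefore covered opposite moves of its members' shares. The levels did not balance in this way. The summed ERK-selective level was 125.6 ± 12.2 RPKM in acid and 74.0 ± 3.24 RPKM in neutral saline at 6 h (SD, n = 3 each). DUSP6 was at 55.8 and 59.2 RPKM.

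At 3 h the nuclear inducible share was 28.8% ± 0.677 in acid and 9.96% ± 1.47 in neutral saline, the ERK-selective share 33.2% ± 3.02 and 44.5% ± 2.04, and the stress-kinase-selective share 38.1% ± 3.40 and 45.5% ± 2.49 (SD, n = 3 each). Shares of one sum move together, so a smaller share need not be a lower level. The summed stress-kinase-selective level was 82.8 ± 0.895 RPKM in acid and 94.5 ± 2.28 RPKM in neutral saline at 6 h, and 63.4 ± 4.79 RPKM and 58.2 ± 2.38 RPKM at 3 h (SD, n = 3 each).

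**Figure D4:**
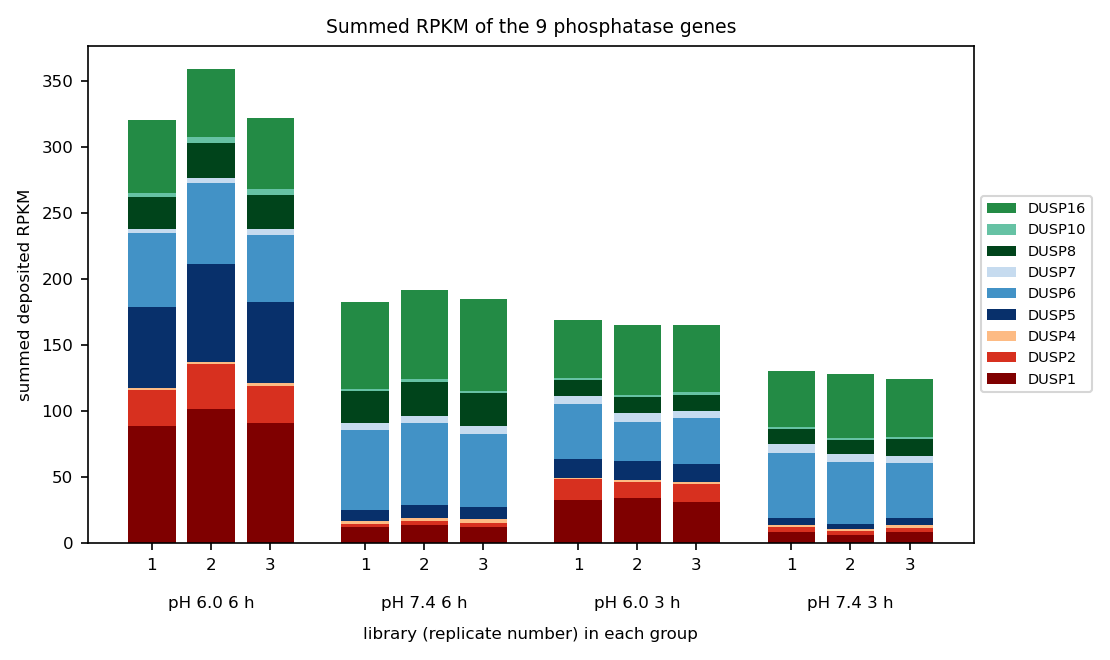
Summed deposited RPKM of the 9 genes in each library (linear axis from 0), stacked by gene, with the nuclear inducible genes in red and orange at the bottom, the ERK-selective genes in blue and the stress-kinase-selective genes in green. The 6 h acid libraries reach 320.7 to 359.2 RPKM, against 183.2 to 191.6 RPKM in the 6 h neutral libraries, and most of the difference lies in DUSP1, DUSP2 and DUSP5.

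Ratios within a library do not depend on the scaling of that library. The RPKM ratio of DUSP1 to DUSP6 was 1.59 to 1.81 in the pH 6.0 libraries at 6 h, against 0.201 to 0.224 in the pH 7.4 libraries, and at 3 h it was 0.785 to 1.14 against 0.133 to 0.195. The ratio of DUSP5 to DUSP6, the nuclear and the cytoplasmic ERK phosphatase, was 1.11 to 1.22 in acid and 0.142 to 0.164 in neutral saline at 6 h, and 0.338 to 0.480 and 0.0885 to 0.128 at 3 h. The ratio of DUSP16 to DUSP8 was 1.96 to 2.35 in acid and 2.60 to 2.82 in neutral saline at 6 h, and overlapped at 3 h (3.73 to 4.38 and 3.58 to 4.53). DUSP1 and DUSP5 thus exceeded DUSP6 in every 6 h acid library and in no neutral one, while DUSP2 and DUSP4 stayed below DUSP6 in the group means throughout.

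The genes most like 3 of the phosphatases over the 12 libraries were found by Pearson's r of log2 CPM, as a description, since the 12 libraries share 4 conditions. For DUSP1 they were JUNB (r = 0.993), SOCS3 (0.991) and BCL3 (0.991). For DUSP6 they were GDF15 (0.983), SBDS (0.969) and ARL6IP6 (0.967), and for DUSP10 BAG3 (0.981), DEDD2 (0.9751) and CDKN1C (0.971).

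The kinases that these phosphatases oppose, and the other genes of the pathway, were counted from lists, to be read against the 21.9% of all genes called higher and 25.1% called lower at 6 h and the 9.53% and 9.26% at 3 h. Of the MAP kinases 12 of 14 listed were tested, and at 6 h 2 were higher and 3 lower in acid (median log2 fold change 0.12), while at 3 h the one called was higher (0.06). MAPK9, a JNK, rose by 0.31 ± 0.08 SE at 6 h (edgeR adjusted p = 0.00407). MAPK7, which is ERK5, and MAPK15, an atypical ERK, fell by 0.49 ± 0.13 (edgeR adjusted p = 0.00288) and 1.20 ± 0.25 (0.00037). The other called genes, named after their values were seen, were MAPK8, also a JNK, which fell by 0.39 ± 0.10 (edgeR adjusted p = 0.0041), and MAPK13, a p38, which rose by 0.27 ± 0.07 (0.00512). The JNK genes MAPK8 and MAPK9 thus moved in opposite directions.

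All 7 MAP kinase kinases were tested, and at 6 h 2 were higher and 2 lower in acid (median −0.08), while at 3 h the 2 called were lower (−0.15). MAP2K1, an activator of ERK, rose by 0.60 ± 0.08 SE at 6 h (edgeR adjusted p = 1.83e-06) and MAP2K3, an activator of p38, by 0.61 ± 0.09 (8e-06). Both activators of JNK were lower in acid: MAP2K4 fell by 0.63 ± 0.10 at 6 h (edgeR adjusted p = 2.94e-05) and by 0.38 ± 0.10 at 3 h (0.0114), and MAP2K7 by 0.59 ± 0.08 (6.22e-06) and 0.48 ± 0.08 (0.000397). For MAP2K2, MAP2K5 and MAP2K6 the 6 h log2 fold changes were −0.02 ± 0.09, −0.24 ± 0.11 and −0.08 ± 0.17, and none passed (edgeR adjusted p = 0.857, 0.0661 and 0.724).

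Of the MAP3 kinases 21 of 22 were tested, and at 6 h 4 were higher and 10 lower in acid (median −0.25), while at 3 h 5 were higher and 1 lower (0.07). MAP3K8, which feeds ERK, rose by 1.30 ± 0.12 SE at 6 h (edgeR adjusted p = 6.57e-09), and MAP3K12, which feeds JNK, by 1.65 ± 0.14 (2.55e-09). TAOK2, a stress-responsive kinase, fell by 0.94 ± 0.08 (edgeR adjusted p = 5.5e-09). These 3 moved in the same direction at 3 h, with log2 fold changes of 0.78, 0.77 and −0.46.

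Other dual-specificity phosphatases outside the 10 were tested for 13 of 18 listed, and at 6 h 5 were higher and 1 lower in acid (median 0.12), while at 3 h the one called was higher (−0.06). DUSP9, an ERK phosphatase close to DUSP6 and DUSP7, had 7.60 ± 0.693 CPM in acid and 3.68 ± 0.328 CPM in neutral saline at 6 h (SD, n = 3 each), a log2 fold change of 1.04 ± 0.16 SE (edgeR adjusted p = 1.65e-05). It also fell with time at pH 7.4, by 0.77 ± 0.16 (edgeR adjusted p = 0.00106), and at pH 6.0 its value was 0.19 ± 0.15 (0.4). DUSP18, a phosphatase of the atypical kind, fell by 0.86 ± 0.18 in acid at 6 h (edgeR adjusted p = 0.000416), and STYXL2, a catalytically dead relative, rose by 0.36 ± 0.09 (0.00253).

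Other phosphatases that act on MAP kinases were tested for 10 of 12 listed, with 3 higher and 2 lower in acid at 6 h (median −0.06) and 1 higher and 2 lower at 3 h (−0.05). PTPRR, a tyrosine phosphatase that binds ERK, rose by 0.91 ± 0.10 SE at 6 h (edgeR adjusted p = 2.88e-07), and PPP2CA, a catalytic subunit of protein phosphatase 2A, by 0.39 ± 0.08 (0.000232). PPM1D, a p53 target that dephosphorylates p38, fell by 0.66 ± 0.12 (edgeR adjusted p = 0.00012).

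ERK output genes other than these phosphatases moved in both directions. Of 20 listed 19 were tested, with 8 higher and 7 lower in acid at 6 h (median −0.10) and 8 higher and 5 lower at 3 h (0.12). FOS rose by 2.02 ± 0.09 SE at 6 h (edgeR adjusted p = 3.2e-14) and EGR1 by 1.62 ± 0.08 (8.56e-13), both immediate early transcription factors, while MYC fell by 3.03 ± 0.10 (9.71e-16). All 12 of the 19 that were called with time at pH 7.4 rose, and at pH 6.0 9 rose and 3 fell, beside 17.2% of all genes called higher and 14.4% lower at pH 7.4 and 8.64% and 10.9% at pH 6.0.

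Of the stress kinase substrates and activators 20 of 20 were tested, with 7 higher and 2 lower in acid at 6 h (median 0.07) and all 6 called at 3 h higher (0.01). GADD45B, which binds and activates a MAP3 kinase, rose by 4.55 ± 0.12 SE at 6 h (edgeR adjusted p = 1.3e-17) and ZFP36, an mRNA decay factor regulated by p38, by 2.22 ± 0.11 (2.52e-12). ATF3, a transcription factor of the stress response, rose by 1.96 ± 0.09 (edgeR adjusted p = 5.45e-14).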

How the data were processed

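Read counts and RPKM values per Ensembl gene in 12 libraries were deposited by the authors; STAR, CASAVA and build hg19 are named in the submitters' processing notes. The sources used here do not give the annotation, counting program or strandedness, and the labels name no batch. Symbols were found for 45342 of 48162 identifiers from gene name tables and GENCODE 29. The identifier of DUSP14 in those tables was not among the table's. Genes, classes and pathway lists were chosen with earlier results of these data known.

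Counts were fitted in 1 edgeR 4.0.16 robust quasi-likelihood model of 4 groups (R 4.3.3, TMM factors, filterByExpr, 8 residual degrees of freedom), with Benjamini-Hochberg adjustment over 15630 genes and a threshold of 0.05. CPM used TMM-scaled totals. SE is the log2 fold change over the square root of F. DESeq2 1.42.0 and the other alternatives are given in the closing section. The procedure was tested on simulated data. No library pair within a group agreed within sampling noise (chi-square divided by its degrees of freedom, 5.40 to 19.5). RPKM, made by the authors, was scaled by library totals without TMM factors. It served for levels between genes, ranks, sums, shares and ratios, which were also set side by side between groups. No test was run on RPKM. The named genes were all 9 matched phosphatases, the 3 genes most correlated with DUSP1, DUSP6 and DUSP10, and from each list the up to 3 called genes with the smallest p at 6 h, or the whole list where it held 7 or fewer.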

Additional observations from a re-analysis of the deposited data

Results flagged for a closer look

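The pH effect at 6 h differed from that at 3 h, by the interaction term in edgeR, for 6 of the 9 phosphatases and for 11 of the 25 pathway genes named. Of all genes tested, 13.1% had a positive and 16.3% a negative call. Most of the 25 were chosen for a small p for pH at 6 h, which favours such a call. On the log2 scale, 6 h minus 3 h, the difference was 0.80 for DUSP1, 1.39 for DUSP2, 1.31 for DUSP5, 1.14 for DUSP10, −0.52 for DUSP7 and −0.46 for DUSP16.

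Among kinases it was 0.41 for MAP2K1, 0.57 for MAP2K3, 0.52 for MAP3K8, 0.87 for MAP3K12 and −0.48 for TAOK2. Among other phosphatases it was 0.96 for DUSP9 and 0.31 for PPP2CA. Among output and stress genes it was −0.56 for FOS, −1.35 for MYC, 2.16 for GADD45B and 0.95 for ATF3. The FOS value is negative because its rise in acid was smaller at 6 h (2.02) than at 3 h (2.58). Groups of 3 libraries were not searched for single libraries that stand apart.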

How the results depend on the processing

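The number of the 9 phosphatases called stayed within 1.5 times its value in all 99 alternatives: 6 to 7 at 6 h and 3 to 5 at 3 h for pH, 8 to 9 for time at pH 6.0, 6 for time at pH 7.4, and 5 to 7 for the interaction. With the replicate number as a block these counts were 7, 4, 8, 6 and 6; same-numbered libraries deviated together with r of −0.05 to 0.23, not above 0.1 throughout any comparison, so the numbers were not taken to pair libraries. The called pH effects of DUSP1, DUSP2 and DUSP5 at both times and of DUSP10 at 6 h passed in all 20 alternatives. Of 891 recomputed fold changes 841 kept direction and side of the threshold, 13 gained and 13 lost a call, and 24 changed sign; the cause was not tested. Those that changed sign passed in neither setting. For DUSP7, pH at 3 h, they were 0.0214 at 5 CPM in 3 libraries, 0.00137 in the compared groups alone, 0.00452 with length correction, and −0.0822 to 0.0719 leaving out libraries. For DUSP6, pH at 6 h, they were 0.00516 (5 CPM), 0.0747 (length) and −0.0873 to 0.0558. For DUSP7, time at pH 7.4, they were 0.006495 (DESeq2), 0.00842 (median-of-ratios factors), 0.0311 (length) and −0.0406 to 0.0532. DUSP10, time at pH 7.4, gave −0.0107 to 0.2499. The DUSP4 interaction was −0.0123 on total counts and −0.0763 to 0.1295, and that of DUSP8 0.1062 (length) and −0.0825 to 0.0337. Of 693 recomputed list counts 634 stayed within 1.5 times. Total counts gave a median log2 fold change over all genes of −0.104 for time at pH 6.0, beside −0.0186 with TMM, and moved the share of called genes that were higher, over all genes, to 40.5% from 50.7% for pH at 3 h, to 23.6% from 44.3% for time at pH 6.0 and to 39.7% from 54.5% for time at pH 7.4; length correction moved it to 59.9% from 44.3% for time at pH 6.0 and to 56.8% from 44.6% for the interaction. The interaction cannot be had from the compared groups alone. DUSP10, with 60 to 239 counts a library, had the highest SE of the 9 genes in all 5 comparisons. Intervals rest on 1 spread per gene, estimated over all 12 libraries and moderated over genes by the fit. With 3 libraries a group they cover library-to-library spread alone.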
